A study of Mus musculus with 4 samples.

Results

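The expression of 10 imprinted genes was compared between sorted cells of *Dnmt1* KO and control embryos, which also held RNA of other cell types, as given below. The genes were *Peg3*, *Usp29*, *Zim1*, *Peg10*, *Sgce*, *Mest*, *Plagl1*, *Nnat*, *Grb10* and *Igf2r*, taken by name from the 56883 genes of the deposited table, and all 10 were found and passed the filter on low values. RNA came from FAC-sorted, tdTomato-positive cells of the E14.5 basal telencephalon. Control embryos carried *Sst-Cre* and a Cre-dependent *tdTomato* reporter (*Sst-Cre/tdTomato*), and *Dnmt1* KO embryos carried in addition the floxed *Dnmt1* allele (*Sst-Cre/tdTomato/Dnmt1 loxP2*). Cre was driven from the *Sst* locus, so that deletion was directed to postmitotic somatostatin interneurons. A figure legend of the study states that the libraries of a genotype were processed separately, each from pooled cells of several embryos. Its methods describe RNA from cells pooled per genotype, so whether libraries of a genotype shared material is not clear. There were 2 libraries per genotype, with 6970247 to 8376711 reads on genes each. The p-values therefore rest on the spread between libraries of pooled cells and not between single embryos. They also rest on a trend of the spread over all genes, without which 0 genes of the table were called.

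Imprinted genes are transcribed mainly from 1 parental allele, because DNA methylation laid down in 1 parent's germ cells marks that allele for life. DNMT1 copies this methylation at each replication, and the zinc finger protein ZFP57 with its partner TRIM28 protects the mark by binding a methylated hexamer. Many imprinted genes act on growth, metabolism and neural development. *Peg3*, *Usp29*, *Peg10*, *Sgce*, *Mest*, *Plagl1* and *Nnat* are known as paternally expressed genes, and *Zim1* and *Igf2r* as maternally expressed ones. *Grb10* is transcribed from the maternal allele in most tissues and from the paternal allele in neurons. In mouse neurons, *Igf2r* is also known to be transcribed from both alleles. A count per gene sums both alleles, so the values below do not show which allele was read.

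The sequences around the starts of these genes are shown first, searched for letters that imprinting proteins are known to read. Control regions outside the windows searched were not covered. In GRCm39, the build of the deposited data, windows from 1000 bases before to 3000 bases after each canonical transcript start were searched on both strands for TGCCGC, the hexamer of ZFP57, and for GCCATNTT, a core of the motif of YY1, a zinc finger protein known to bind the *Peg3* control region. The starts of *Peg3* and *Usp29* lie 114 bases apart and those of *Peg10* and *Sgce* 199 bases apart, so that the windows of each pair share sites. Matches of the 2 motifs did not overlap each other (0 overlaps). All 10 YY1 matches of *Peg3* lay in an intron on the strand of the gene, and 9 of them carried the same 8 letters. Among 21603 protein-coding genes, 2 had at least as many in a window of this length, *Peg3* included, while 50.4% had at least 1. The 10 sites are given on the minus strand of GRCm39, named by their distance in bases from the start of *Peg3*, with the motif in capitals.
Peg3 +874, chr7:6732580-6732603: cagttggcGCCATCTTggagggtg
Peg3 +980, chr7:6732474-6732497: cgcttggcGCCATCTTgaaatgac
Peg3 +1583, chr7:6731871-6731894: atcctggcGCCATCTTtcctggcc
Peg3 +1724, chr7:6731730-6731753: accctgacGCCATCTTtgctggct
Peg3 +2012, chr7:6731442-6731465: aatttggcGCCATCTTtgccagca
Peg3 +2061, chr7:6731393-6731416: gtgcagacGCCATCTTgaatgaca
Peg3 +2200, chr7:6731254-6731277: ctgaaggtGCCATTTTgattgaca
Peg3 +2499, chr7:6730955-6730978: cacctgacGCCATCTTtgctgacg
Peg3 +2529, chr7:6730925-6730948: gtgcagtaGCCATCTTgaatgaca
Peg3 +2618, chr7:6730836-6730859: acctgggcGCCATCTTtacttgtc

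The ZFP57 hexamer was found in the windows of all 10 genes, against 53.2% of the 21603 protein-coding genes, whose median was 1 match. *Mest* had 12 matches, a number that 4 protein-coding genes reached, *Mest* included. *Peg3* and *Nnat* had 8 each, as did the window of *Airn*, the long noncoding RNA that starts inside *Igf2r*, and 47 protein-coding genes had at least 8. *Plagl1* had 6, *Grb10* and *Usp29* 5, *Peg10* 3, *Sgce* and *Igf2r* 2 and *Zim1* 1. The match nearest to the start is shown for each distinct window, with the hexamer or its reverse complement in capitals.
Peg3 +298, chr7:6733158-6733179, minus strand: gggtgcgtTGCCGCgggccagg
Peg10 -177, chr6:4747221-4747242, plus strand: gcagtgcaTGCCGCgcccccac
Mest -62, chr6:30737974-30737995, plus strand: ggggcgctGCGGCAggatgggc
Plagl1 +78, chr10:12966478-12966499, plus strand: cgtgttgcGCGGCAaagcccac
Nnat +45, chr2:157402017-157402038, plus strand: ccggggctGCGGCAttgcgccc
Grb10 +24, chr11:11987383-11987404, minus strand: gcggggagGCGGCAggaaggga
Igf2r +247, chr17:12988355-12988376, minus strand: cgcgctccTGCCGCcgctcctg
Airn +141, chr17:12960330-12960351, plus strand: cgtgaagcGCGGCAatgcgagg
Zim1 -2, chr7:6699438-6699459, minus strand: gtcatcccGCGGCAttccactc

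These matches describe the letters of the reference genome, and neither binding nor DNA methylation was measured in the libraries analysed here. The study sequenced DNA methylation in sorted cells of the same age and region, and DNMT1-bound chromatin in a cerebellar cell line. Neither data set was examined here. CpG dinucleotides, the sites that DNMT1 methylates, numbered 256 in the window of *Grb10*, 180 in that of *Peg10* and 151 in that of *Igf2r*. *Nnat* and *Sgce* had 145 each, *Peg3* 142, *Plagl1* 135, *Mest* 134, *Usp29* 105 and *Zim1* 69. The median over the protein-coding genes was 90. The ZFP57 hexamer itself holds a CpG, and its matches were compared with protein-coding genes not matched for CpG number.

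**Figure D1:**
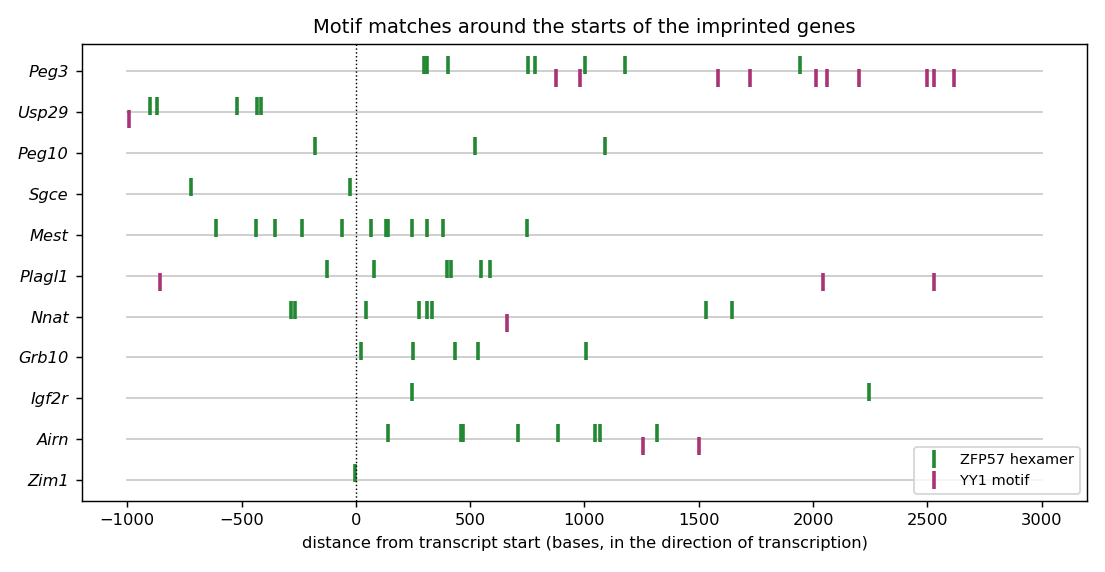
Positions of the ZFP57 hexamer (green) and the YY1 motif (purple) from 1000 bases before to 3000 bases after the transcript start of each imprinted gene and of *Airn*; the x axis gives the distance from the start in bases. The 10 YY1 matches of *Peg3* lie after its start, and the 12 ZFP57 matches of *Mest* spread over both sides of its start.

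In *Dnmt1* KO libraries, 5 of the 10 imprinted genes were lower and 1 was higher. *Grb10* fell most, to 795.8 from 1431 normalized counts, followed by *Peg10*, *Mest*, *Plagl1* and *Peg3*, and *Igf2r* rose. For *Sgce*, *Nnat*, *Usp29* and *Zim1* the test was not passed. Genes were called at a Benjamini-Hochberg (BH) adjusted p below 0.05 from limma on log2(normalized count + 1), fitted over all 14323 genes whose normalized counts averaged 10 or more, and a normalized count is a read number scaled by the library's size factor. Over all genes tested, 17.3% were called, 8.30% as higher and 8.99% as lower. The libraries of the genotypes did not overlap for any of the 10 genes, which was also so for 57.4% of all genes tested. The targeted gene itself had 2238 and 2341 normalized counts in control and 2164 and 2210 in *Dnmt1* KO libraries, a log2 fold change of -0.066 (SE, the standard error, 0.054, BH-adjusted p = 0.461 in limma). Reads were summed over all exons, floxed or not, and reads on the floxed exons alone were not examined. For sorted cells of the E14.5 cortex, the study reported lower *Dnmt1* transcript counts in the KO. By immunostaining, it also reported a lower DNMT1 protein signal in tdTomato-positive cells of E14.5 KO embryos. Why *Dnmt1* was not called here was not tested, and its counts in these libraries give no check of the labels.

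The 7 paternally expressed genes had a median log2 fold change of -0.37, with 4 called lower, 0 called higher and 3 not called. This median was -0.22 without control replicate 1 and -0.28 without control replicate 2. The log2 fold changes of the 2 genes known as maternally expressed were 0.29 for *Igf2r*, which was called, and 0.18 for *Zim1*, which was not. In mouse neurons *Igf2r* is also known to be transcribed from both alleles, so its place among maternally expressed genes is uncertain here. The median over all genes tested was -0.0033. These are descriptions of few genes, and the difference between paternally and maternally expressed genes was not tested. *Usp29*, at 0.09, had the opposite sign to the other 6 paternally expressed genes, but its value was -0.0010 once length and GC trends were taken out.

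**Figure D2:**
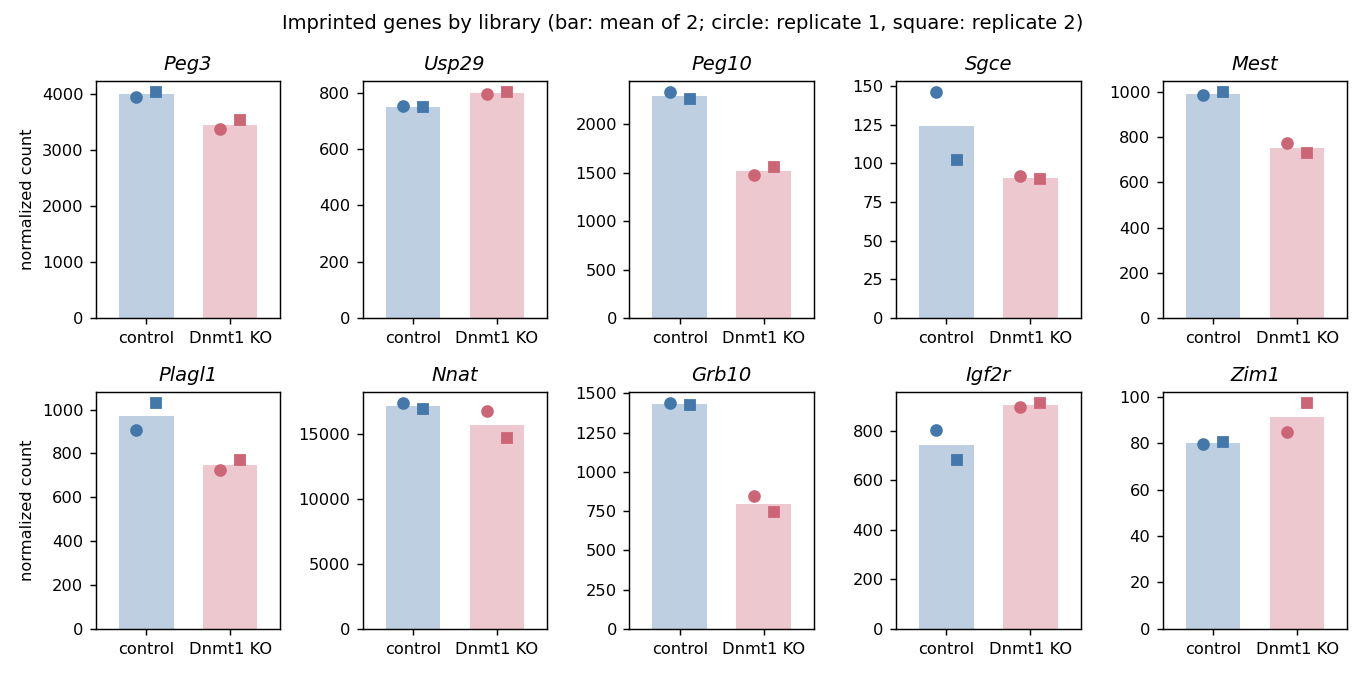
Normalized count of each imprinted gene (y axis, linear, from 0) in the 2 control (blue) and 2 *Dnmt1* KO (red) libraries; bars are means of 2, circles replicate 1 and squares replicate 2. *Grb10* sits at 1438 and 1423 in control and at 844.3 and 747.3 in *Dnmt1* KO libraries, whereas *Sgce* has control libraries that lie apart.

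*Peg3* encodes a large zinc finger protein of embryonic and neural tissue and lies on chromosome 7 from 6706882 to 6733468. It was counted at 3962 and 4038 in control and at 3383 and 3536 in *Dnmt1* KO libraries. Both *Dnmt1* KO libraries were below both control libraries, and the means, 4000 ± 53.8 and 3459 ± 108 (SD, n = 2 each), differed by -13.5%. The log2 fold change was -0.21 (SE 0.048, BH-adjusted p = 0.00677 in limma). Without *Dnmt1* KO replicate 1, the BH-adjusted p in limma was 0.0675. Of all genes tested, 50.1% had a change at least as large in either direction, which puts *Peg3* near the middle of the table by size of change.

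*Usp29*, a ubiquitin-specific protease gene that starts next to *Peg3* and is transcribed in the opposite direction, lies on chromosome 7 from 6733577 to 6970218. Its normalized counts were 752.6 and 747.3 in control and 794.0 and 800.9 in *Dnmt1* KO libraries. The libraries of each genotype were close together, and the log2 fold change of 0.089 (SE 0.073) had a BH-adjusted p of 0.459 in limma. *Zim1*, a zinc finger gene next to *Peg3* on chromosome 7 from 6674268 to 6699500, was counted at 79.6 and 80.7 in control and at 84.8 and 97.2 in *Dnmt1* KO libraries. With 74 to 95 reads per library it had the lowest count of the 10 genes, and its log2 fold change of 0.18 (SE 0.19, BH-adjusted p = 0.583 in limma) was smaller than its error. It was 0.081 without *Dnmt1* KO replicate 2, 0.28 without *Dnmt1* KO replicate 1 and 0.055 once length and GC trends were taken out.

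*Peg3* was also set against its neighbours within each library. The log2 ratio of *Peg3* to *Usp29* was 2.39 and 2.43 in control and 2.09 and 2.14 in *Dnmt1* KO libraries, a difference of -0.30. The log2 ratio of *Peg3* to *Zim1* was 5.62 and 5.63 in control and 5.30 and 5.17 in *Dnmt1* KO libraries, a difference of -0.39. Neither ratio overlapped between genotypes, and the exact two-sided permutation test gave 0.333 for each, the smallest p that 2 against 2 libraries allow.

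*Peg10*, derived from a retrotransposon and known for its role in the placenta, lies on chromosome 6 from 4747306 to 4760517. It was counted at 2326 and 2257 in control and at 1473 and 1553 in *Dnmt1* KO libraries. The control libraries were both far above the *Dnmt1* KO libraries, with means of 2291 ± 48.5 and 1513 ± 56.5 (SD, n = 2 each) and a log2 fold change of -0.60 (SE 0.058, BH-adjusted p = 4.61e-06 in limma). Leaving out any 1 library gave log2 fold changes between -0.64 and -0.56, and the largest BH-adjusted p in limma was 0.000167.

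*Sgce*, the gene of epsilon-sarcoglycan, in which mutations of the human gene cause myoclonus-dystonia, starts next to *Peg10* on the other strand and extends on chromosome 6 from 4672057 to 4747207. Its normalized counts were 145.9 and 102.1 in control and 91.7 and 89.6 in *Dnmt1* KO libraries. Control replicate 1 stood apart from the other 3 libraries, and the log2 fold change of -0.42 (SE 0.19, BH-adjusted p = 0.153 in limma) was -0.17 without it and -0.68 without control replicate 2. The log2 ratio of *Peg10* to *Sgce* overlapped between genotypes, at 3.99 and 4.45 in control and 3.99 and 4.10 in *Dnmt1* KO libraries (exact two-sided permutation p = 1), and the sign of the difference, -0.17, turned to 0.059 without control replicate 2. *Sgce* had 88 to 148 reads per library.

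*Mest*, which encodes a protein with a hydrolase fold and is named for its expression in mesoderm, lies on chromosome 6 from 30723546 to 30752058. It was counted at 985.2 and 998.4 in control and at 776.3 and 730.9 in *Dnmt1* KO libraries. The gap between the genotypes was wider than that within either, with a log2 fold change of -0.40 (SE 0.072, BH-adjusted p = 0.00134 in limma). *Mest* shares 3850 exon bases with *Copg2*, a gene of a vesicle coat subunit on the opposite strand, and the use of strand in the counting is not given in the sources used here. *Copg2* had 319.5 and 349.1 normalized counts in control and 351.1 and 332.1 in *Dnmt1* KO libraries, with overlapping genotypes and a log2 fold change of 0.032 (BH-adjusted p = 0.875 in limma) whose sign turned to -0.094 once trends with length and GC were taken out of each library, to -0.032 without control replicate 1 and to -0.0079 without *Dnmt1* KO replicate 1.

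*Plagl1* encodes a zinc finger transcription factor that restrains the cell cycle, and lies on chromosome 10 from 12936248 to 13007438. Its normalized counts were 907.4 and 1030 in control and 725.0 and 771.4 in *Dnmt1* KO libraries. Control replicate 2 was the highest library, and the log2 fold change of -0.37 (SE 0.080, BH-adjusted p = 0.00459 in limma) was -0.28 without it, with a BH-adjusted p of 0.0613 in limma. With each of the other 3 libraries left out, *Plagl1* was called lower.

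*Nnat*, or neuronatin, encodes a short membrane protein of neurons and neural progenitors. It occupies a small span on chromosome 2 from 157401879 to 157404573, within the span of *Blcap*, with which it shares 49 exon bases. *Nnat* was counted at 17398 and 16911 in control and at 16785 and 14687 in *Dnmt1* KO libraries. *Dnmt1* KO replicate 1 was close to the control libraries and replicate 2 was lower, and the log2 fold change of -0.13 (SE 0.050) had a BH-adjusted p of 0.0927 in limma. The log2 fold change was -0.22 without *Dnmt1* KO replicate 1 (BH-adjusted p = 0.000967 in limma) and -0.031 without *Dnmt1* KO replicate 2 (BH-adjusted p = 0.79 in limma). With all libraries kept, it was -0.0017 once length and GC trends were taken out (BH-adjusted p = 0.987 in limma), and with quantile normalization the means did not differ (BH-adjusted p = 1 in limma). The size of the *Nnat* difference thus depended on the library left out and on the scaling. *Blcap*, a gene that is transcribed in the opposite direction, had 608.5 and 574.8 normalized counts in control and 674.7 and 631.5 in *Dnmt1* KO libraries (log2 fold change 0.14, BH-adjusted p = 0.268 in limma).

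*Grb10* encodes an adaptor protein that binds the insulin and IGF1 receptors and dampens their signal, and lies on chromosome 11 from 11880498 to 11988683. It was counted at 1438 and 1423 in control and at 844.3 and 747.3 in *Dnmt1* KO libraries. The means of 1431 ± 10.6 and 795.8 ± 68.6 (SD, n = 2 each) differed by -44.4%, and the log2 fold change of -0.85 (SE 0.073) had a BH-adjusted p of 1.61e-06 in limma. Leaving out any 1 library gave values between -0.94 and -0.76, with BH-adjusted p up to 8.46e-05 in limma. Of all genes tested, 9.03% had a change at least as large in either direction. The neighbour *Cobl*, which nucleates actin filaments, had a log2 fold change of -0.23 (SE 0.12, BH-adjusted p = 0.224 in limma), and the log2 ratio of *Grb10* to *Cobl* was 2.53 and 2.56 in control and 2.06 and 1.78 in *Dnmt1* KO libraries (exact two-sided permutation p = 0.333, the smallest possible).

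*Igf2r* encodes the receptor that carries IGF2 and mannose 6-phosphate proteins to lysosomes, and lies on chromosome 17 from 12901293 to 12988614. It was counted at 802.7 and 683.0 in control and at 894.6 and 912.3 in *Dnmt1* KO libraries. The control libraries lay further apart than the *Dnmt1* KO libraries, and the log2 fold change of 0.29 (SE 0.083) had a BH-adjusted p of 0.0267 in limma. The call was lost without control replicate 2 (log2 fold change 0.17, BH-adjusted p = 0.229 in limma), without *Dnmt1* KO replicate 2 (BH-adjusted p = 0.0586 in limma), with quantile normalization (BH-adjusted p = 0.0828 in limma) and with DESeq2 (Benjamini-Hochberg adjusted p = 0.135). *Airn*, the noncoding RNA on the other strand whose transcription silences *Igf2r* on the paternal allele, gave only 8 and 10 reads in control and 3 and 7 in *Dnmt1* KO libraries and was below the filter.

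**Figure D3:**
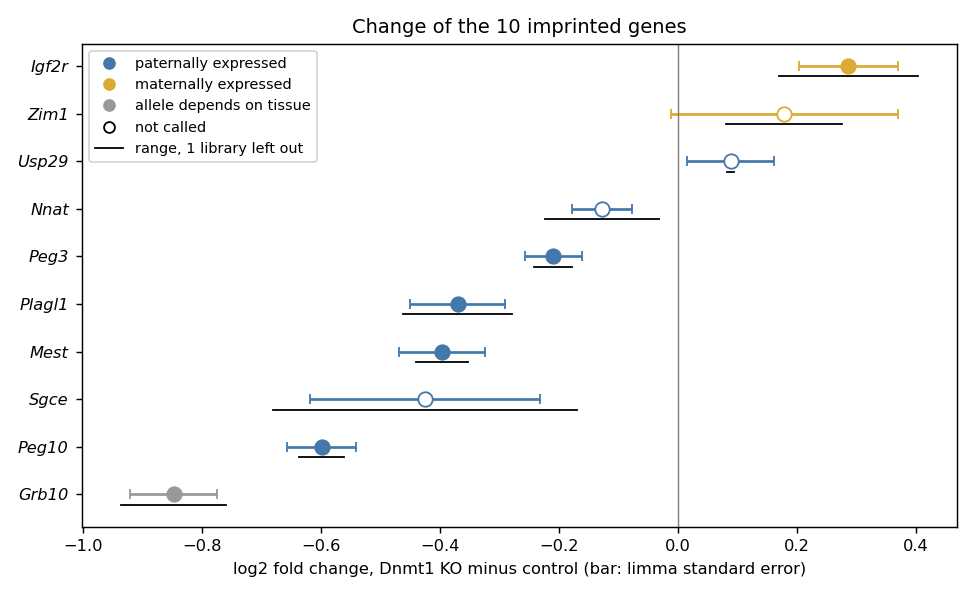
Log2 fold change of the 10 imprinted genes (x axis, *Dnmt1* KO minus control) with limma's standard error as the horizontal bar; filled points are called, colours give the known parental allele, and the thin black line is the range with 1 library left out. *Grb10* lies at -0.85 and *Igf2r* at 0.29, and the range of *Sgce* reaches from -0.68 to -0.17. *Igf2r* is coloured as maternally expressed, although in mouse neurons it is also known to be transcribed from both alleles.

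Levels of the genes were compared per kilobase of the canonical transcript. In control cells, *Nnat* had 12359 normalized counts per kb and ranked at 18 of 14285 genes with a length. *Mest* followed with 785.9, *Peg3* with 457.0, *Peg10* with 348.9, *Grb10* with 281.1, *Plagl1* with 180.0, *Usp29* with 99.5, *Igf2r* with 83.0, *Sgce* with 31.1 and *Zim1* with 10.4. No neighbours in this order overlapped between libraries of one genotype. In *Dnmt1* KO cells the distances between *Grb10* and *Plagl1* (156.4 and 139.0 normalized counts per kb) and between *Usp29* and *Igf2r* (105.8 and 100.9) were small. The place of *Mest* depended on the transcript, since over its longest coding transcript it had 158.5 normalized counts per kb and ranked at 5 of the 10.

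Related genes were counted in lists. Of 28 genes that neighbour the 10 in their domains, 25 were in the table and 13 were tested, and 3 were called, all lower, with a median log2 fold change of -0.23 over the tested genes. These were 23.1% of the tested neighbours, against 17.3% of all genes called in either direction and 8.99% called lower. Neighbours were not sorted by whether they are imprinted themselves. The values given above for paternally and maternally expressed genes covered only members. *Phactr2*, a phosphatase and actin regulator next to *Plagl1*, had 152.1 and 165.4 normalized counts in control and 82.9 and 86.3 in *Dnmt1* KO libraries (log2 fold change -0.90, BH-adjusted p = 0.00134 in limma). *Asb4*, in the *Peg10* domain, had a log2 fold change of -0.64 (BH-adjusted p = 0.0259 in limma), whose call was lost without control replicate 2 (BH-adjusted p = 0.255 in limma), with quantile normalization (BH-adjusted p = 0.0644 in limma) and with DESeq2 (Benjamini-Hochberg adjusted p = 0.209). *Ddc*, which makes dopamine and serotonin and is a neighbour of *Grb10*, rested on 7 to 22 reads per library (log2 fold change -1.63, BH-adjusted p = 0.0269 in limma), and its adjusted p was above 0.05 with 3 of the 4 libraries left out in turn.

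Of 21 further imprinted genes, 17 were tested and 2 were called. *Peg13*, a noncoding RNA that is paternally expressed in brain, was counted at 1160 and 1198 in control and at 1499 and 1573 in *Dnmt1* KO libraries (log2 fold change 0.38, BH-adjusted p = 0.000612 in limma). *Gnas*, the gene of a stimulatory G protein subunit in a complex imprinted domain, fell from 6957 and 6813 to 6024 and 5694 (log2 fold change -0.23, BH-adjusted p = 0.00181 in limma). The median of the list was -0.0063 on the log2 scale, and 11.8% of its tested genes were called against the 17.3% given above for all genes.

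Of 23 genes that maintain or remove methylation at imprints, 20 were tested, 3 were called higher and 3 lower, or 30.0% in either direction against 17.3% of all genes tested. *Uhrf1*, which brings DNMT1 to hemimethylated DNA, had a log2 fold change of -0.70 and *Hells*, a chromatin remodeller needed for DNA methylation, of -0.61, while *Mbd3* had -0.35 and *Tet3*, *Atrx* and *Tet2* had 0.35, 0.32 and 0.30. The *Hells* call was lost with DESeq2 (BH-adjusted p = 0.0509). The *Mbd3* call was lost without *Dnmt1* KO replicate 1, at a log2 fold change of -0.19 (BH-adjusted p = 0.15 in limma), and without control replicate 2 (BH-adjusted p = 0.0655 in limma). The *Tet2* call was lost without control replicate 1 (BH-adjusted p = 0.0764 in limma), and that of *Atrx* once the length and GC trends were taken out (log2 fold change 0.036, BH-adjusted p = 0.699 in limma). *Zfp57*, whose protein reads the hexamers shown above, was counted at 1522 and 1465 in control and at 1657 and 1617 in *Dnmt1* KO libraries (log2 fold change 0.13, BH-adjusted p = 0.147 in limma), and *Trim28* had a log2 fold change of -0.0042 (BH-adjusted p = 0.972 in limma).

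Of 14 partners of GRB10, IGF2R and PLAGL1 in growth signalling, 13 were tested, 2 were called higher and 1 lower, or 23.1% against 17.3% of all genes tested. The receptors *Insr* and *Igf1r*, which GRB10 binds, had log2 fold changes of 0.39 (BH-adjusted p = 0.0011 in limma) and 0.35 (BH-adjusted p = 0.000981 in limma). *Igf2*, the ligand that IGF2R removes, fell from 131.5 and 131.7 to 67.1 and 71.0 normalized counts (log2 fold change -0.92, BH-adjusted p = 0.00221 in limma).

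**Figure D4:**
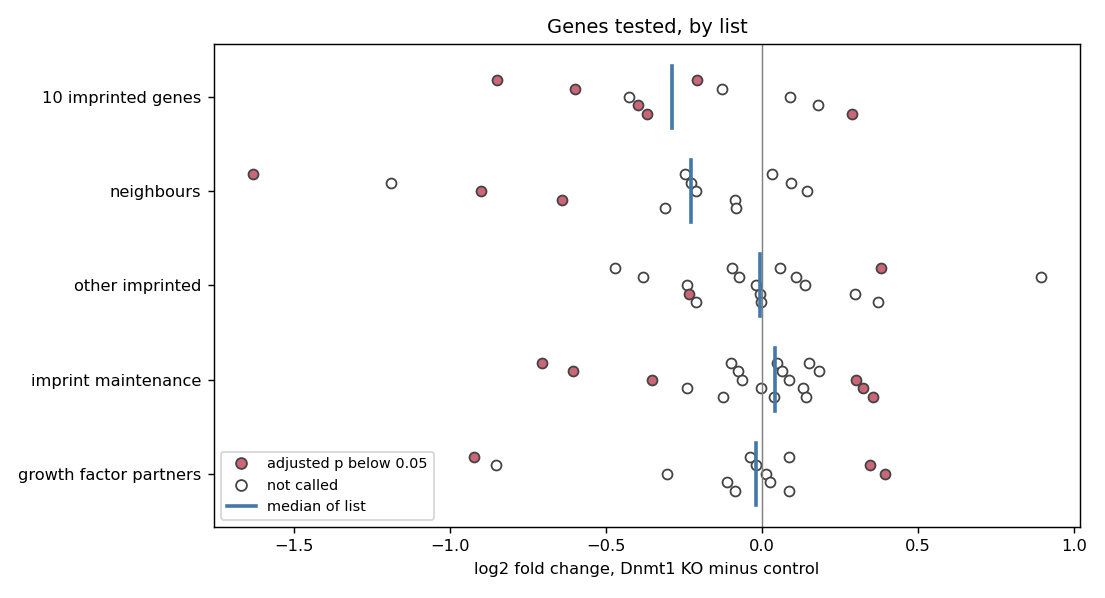
Log2 fold change (x axis, *Dnmt1* KO minus control) of every tested gene in 5 lists, 1 point per gene; filled points are called and the blue line is the median of the list. The 10 imprinted genes have a median of -0.29, the 13 neighbours of -0.23 and the 17 other imprinted genes of -0.0063.

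Markers of other cells moved with the genotype, and in bulk RNA fewer cells of a type and less RNA per cell cannot be told apart. Of 11 markers of Sst interneurons, 10 were called higher, and their summed normalized count was 20576 to 20900 in control and 31919 to 32068 in *Dnmt1* KO libraries. All 11 progenitor markers were tested, 9 were called lower and 1 higher, and their sum was 15382 to 15519 in control and 9711 to 9881 in *Dnmt1* KO libraries, led by *Vim* and *Mki67*. The excitatory lineage summed to 3034 to 3124 and 1606 to 1756, with 8 of 10 markers called lower. Endothelial and mural markers summed to 721.3 to 790.2 and 328.5 to 334.3 (9 of 10 lower), erythroid markers to 2433 to 2610 and 586.9 to 592.2 (all 8 tested of 10 lower), fibroblast markers to 249.1 to 252.4 and 117.4 to 124.6 (3 of 5 tested lower, of 7) and microglial markers to 83.2 to 103.1 and 32.6 to 44.8 (1 of 3 tested lower, of 7). No marker of these lists was at 0 in all libraries. Their part in the lower counts of *Grb10*, *Peg10*, *Mest*, *Plagl1* and *Peg3* and in the higher count of *Igf2r* was not tested. The same holds for the called genes of the other lists, among them *Uhrf1*, *Hells*, *Phactr2* and *Igf2*.

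**Figure D5:**
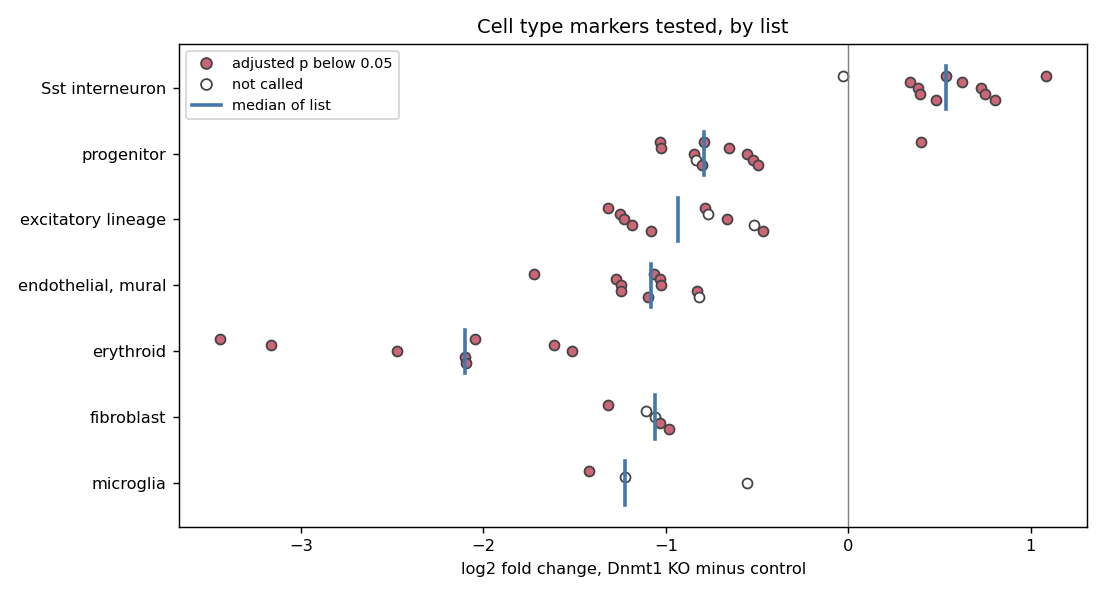
Log2 fold change (x axis, *Dnmt1* KO minus control) of every tested cell type marker, 1 point per gene, by list; filled points are called and the blue line is the median of the list. The Sst interneuron markers have a median of 0.53 and the progenitor markers of -0.79.

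Across alternative settings, 6 of the 10 genes were also called with pseudocounts of 0.5 and 10, where 17.2% and 17.8% of all genes tested were called, with averages of at least 1 and 50 (11.5% and 22.3%), with TMM scaling (16.9%) and without the length and GC trends (16.7%). On reads recovered from the normalized counts, edgeR's quasi-likelihood test and limma-voom called 6 members (17.6% and 17.4% of all genes), and DESeq2 called 5 (8.27%), which were *Grb10*, *Peg10*, *Mest*, *Plagl1* and *Peg3*. Quantile normalization gave 5 members (15.7%) and the replicate block 7 (20.6%). Without control replicates 1 and 2, 6 and 4 members were called (11.5% and 10.6% of all genes), and without *Dnmt1* KO replicates 1 and 2, 6 and 5 (15.4% and 14.7%). Limma without the trend of the variance over expression called 0 of the 10 and 0 genes of the whole table (0.00%), with 3339 genes at an unadjusted p below 0.05. Non-overlapping libraries were higher in *Dnmt1* KO for 28.4% and lower for 29.0% of all genes tested.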

How the data were processed

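Stranded libraries were prepared from total RNA, with rRNA removed. Per the labels and the methods of the study, the authors used Trim Galore, STAR on GRCm39, Salmon and DESeq2. The values deposited by the authors are normalized counts, a signal in which the reads of each gene are divided by the library's size factor. Reads were recovered from them: 89965 of 89965 values above 0 (100%) came out whole, with a tolerance of 0.0001 reads. Groups and replicate numbers follow the labels. A strand setting of the counting is not given in the sources used here.

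Normalized counts were tested as log2(value + 1) with limma 3.58.1 in R 4.3.3, with a variance trend and genotype as the only term, for genes with a mean of at least 10. Locus ratios were compared by exact permutation with scipy 1.17.1. Alternatives were pseudocounts of 0.5 and 10, means of at least 1 and 50, TMM and quantile scaling, no variance trend, the recovered reads in edgeR 4.0.16, DESeq2 1.42.0 and limma-voom, spline correction (5 degrees of freedom) for length and GC, a replicate block, and omission of single libraries. With a library left out, limma pooled the spread, which assumes that the lone library varies like the others. Positions, lengths and sequences came from GENCODE and GRCm39, the build of the study. Limma, the length and GC correction and edgeR were also run on simulated counts. These had the same dispersion for every gene and no added length or GC trend, so they do not show how the steps perform on these libraries.

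The members and lists were chosen with earlier results of these data known. Named were all 10 members, their locus partners, *Dnmt1*, genes of the lists that were called, and marker sums with their leading genes. *Zfp57* and *Trim28* were named after their values were seen.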

Additional observations from a re-analysis of the deposited data

How the results depend on the processing

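The calls of *Grb10*, *Peg10* and *Mest* held under 15 of 16 alternatives each, those of *Peg3* and *Plagl1* under 14 and that of *Igf2r* under 11. Without the variance trend, limma called 0 genes in all, 0 members and 0 genes of each list of neighbours, other imprinted genes, maintenance genes, growth partners and markers, at a smallest adjusted p of 0.0592, with 3339 genes at an unadjusted p below 0.05 (edgeR called 2528). DESeq2 called 1184 genes and 1 neighbour, against 2476 and 3 for limma. Omission of single libraries left 1525 to 2205 genes called in all, 4 to 6 members, 1 to 3 neighbours, and the median log2 fold change of the paternally expressed genes ran from -0.35 to -0.22. The lowest of these counts came without control replicate 2, where *Igf2r* and *Plagl1* were not called. Once length and GC trends were taken out, the log2 fold change of *Usp29* was -0.0010 and that of *Copg2* -0.094, and *Copg2* also turned without control replicate 1 (-0.032) and *Dnmt1* KO replicate 1 (-0.0079), within a range of -0.032 to 0.096 over single omitted libraries. The cause of these changes was not tested. The replicate block raised the calls to 2957 genes, 7 members with *Nnat*, and 4 other imprinted genes, but same-numbered libraries did not deviate together (r = -0.085 across genes), and the labels give the numbers no further meaning. *Zim1*, *Sgce* and *Airn* rest on at most 148 reads per library.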
